A study of Mus musculus with 14 samples.

Results

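Interferon response genes are the transcripts that cells switch on when interferons bind their receptors. A set of 38 such genes was fixed by name and read in tumours of control and HIF-2α deficient mice. Of these, 33 had a probeset (a group of short probes read as 1 value) annotated to that gene alone, and the brightest probeset over all arrays represented each gene. The remaining 5 were not analysed here: Ddx58, Ifi44 and Xaf1 had no probeset, and those of Isg15 and Tgtp1 are annotated to several genes. Tests were kept to probesets with a log2 level over 4 in 7 or more of the 14 arrays. That left 27 members among 12701 probesets. The table held 22690 probesets.

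Total RNA from tumours of control mice and of mice labelled Hif2alpha deficient, also called a Hif 2alpha knockdown, was read on 7 arrays per group, and the design text of the series counts 7 mice in each. All were on a mixed 129 SvJ/C57Bl6 background. HIF-2α, encoded by Epas1, is a transcription factor that accumulates when oxygen is low, and the series asks what its loss changes in the tumours. The labels give neither the tumours' organ and driver, nor the age of the mice, the allele or the cells in which the gene was lost. Alveolar type II markers, the surfactant genes of lung, were high in both groups, with a mean log2 level of 12.49 to 12.70 over 9 genes in controls and 12.21 to 12.86 in deficient tumours.

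The targeted gene was read first. Epas1 had medians of 6.13 over controls and 5.75 over deficient tumours, and the groups overlapped. The difference was -0.19 (SE 0.30, limma adjusted p = 0.807), and a probeset outside the deleted part of the gene would check nothing. The number that opens each array's description, read without its last digit, is called the leading number below. Control 1 and control 4 share 1 leading number and the other 5 controls another, while the deficient arrays carry 4. No source used here says what it marks. The array numbers in the same descriptions do not interleave between the groups, so anything that followed them cannot be told apart from genotype. The p-values therefore measure the spread between these arrays, which may be fewer than 14 independent samples.

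As background, interferons of type I and type II signal through JAK kinases to STAT proteins. The induced genes carry short DNA elements near their starts, of which the interferon-stimulated response element (ISRE) and the gamma-activated site (GAS) are the best known. The products degrade viral RNA, block translation, hold virus particles at membranes or attack the vacuoles of parasites. In tumours the response comes from infiltrating leukocytes as well as from tumour cells. In bulk samples, fewer cells of a type and less RNA per cell cannot be told apart.

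The letters of these elements can be read at many of the promoters. RefSeq promoter sequences of build GRCm38.p6, which run from 250 bases before to 50 after each transcription start, were found for 30 of the 38 members. The ISRE core was searched as GAAA and GAAA parted by any 2 bases, or TTTC and TTTC so parted on the opposite strand, and the GAS core as TTCNNNGAA, which reads the same on both strands. An ISRE core was found in 18 of those 30 members (60.0%), against 3.99% of all 27025 genes in the table and 3.44% of its entries. A GAS core was found in 11 (36.7%), against 9.55% of genes and 8.30% of entries. These are matches of letters, not measured binding. The 160 bases before the start are shown for genes whose levels are described below, with ISRE and GAS cores in capitals. Ifit1, Ifit3, Rsad2 and Oas1a varied widely between arrays, Gbp2 and Igtp encode GTPases, and Irf1 holds a GAS core only.
Ifit1 (chr19:34640729-34640888, + strand): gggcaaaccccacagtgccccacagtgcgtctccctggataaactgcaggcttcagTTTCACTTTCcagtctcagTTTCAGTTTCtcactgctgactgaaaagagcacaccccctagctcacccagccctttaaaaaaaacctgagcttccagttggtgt
Ifit3 (chr19:34583369-34583528, + strand): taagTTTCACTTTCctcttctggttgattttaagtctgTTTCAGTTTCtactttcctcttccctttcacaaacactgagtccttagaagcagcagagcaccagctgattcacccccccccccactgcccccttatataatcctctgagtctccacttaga
Rsad2 (chr12:26456453-26456612, - strand): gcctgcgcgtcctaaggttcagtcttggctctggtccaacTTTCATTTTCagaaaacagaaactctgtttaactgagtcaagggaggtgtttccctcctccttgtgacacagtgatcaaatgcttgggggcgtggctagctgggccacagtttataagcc
Oas1a (chr5:120907526-120907685, - strand): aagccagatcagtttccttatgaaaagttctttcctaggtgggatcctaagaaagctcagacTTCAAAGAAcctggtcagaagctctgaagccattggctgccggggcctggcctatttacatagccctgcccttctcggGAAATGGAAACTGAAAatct
Gbp2 (chr3:142620503-142620662, + strand): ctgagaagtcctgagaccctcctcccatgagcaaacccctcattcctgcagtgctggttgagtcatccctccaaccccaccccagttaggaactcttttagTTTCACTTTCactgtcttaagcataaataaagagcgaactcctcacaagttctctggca
Igtp (chr11:58199396-58199555, + strand): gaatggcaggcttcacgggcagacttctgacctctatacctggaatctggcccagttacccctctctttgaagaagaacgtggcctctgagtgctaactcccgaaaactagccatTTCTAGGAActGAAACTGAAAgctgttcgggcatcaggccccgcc
Irf1 (chr11:53769854-53770013, + strand): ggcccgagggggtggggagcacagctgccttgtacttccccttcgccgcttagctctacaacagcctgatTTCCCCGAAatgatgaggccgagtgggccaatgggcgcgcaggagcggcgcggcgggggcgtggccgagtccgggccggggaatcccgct
Ifit1 and Ifit3 each hold a pair of ISRE cores, the nearest beginning 85 and 122 bases before the start. In Oas1a a pair of cores overlaps, the nearer beginning 14 bases before the start. In Igtp an ISRE core follows a GAS core closely.

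Between deficient and control tumours no interferon response gene passed the threshold of a limma adjusted p under 0.05. The count was 0 of 27, where 0.0394% of all tested probesets passed (5 of 12701). At an unadjusted p under 0.05 there were 5 members, or 18.5%, where 14.7% of all probesets had one. The share over both directions together thus lay near the background, but the directions were uneven. Usp18, Isg20, Ifi35 and Samhd1, 4 of 27, were lower in deficient tumours, against 6.57% of all probesets. Iigp1 alone, 1 of 27, was higher, against 8.09%. A negative difference was found for 19 of the 27 members (70.4%), against 47.4% of all probesets. The median difference over the members was -0.21 log2 units, against 0.02 over all probesets tested. With single arrays left out it ran from -0.30 to -0.13, the latter without deficient 2 or deficient 3. No member had groups that did not overlap, as 0.496% of all probesets did.

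**Figure D1:**
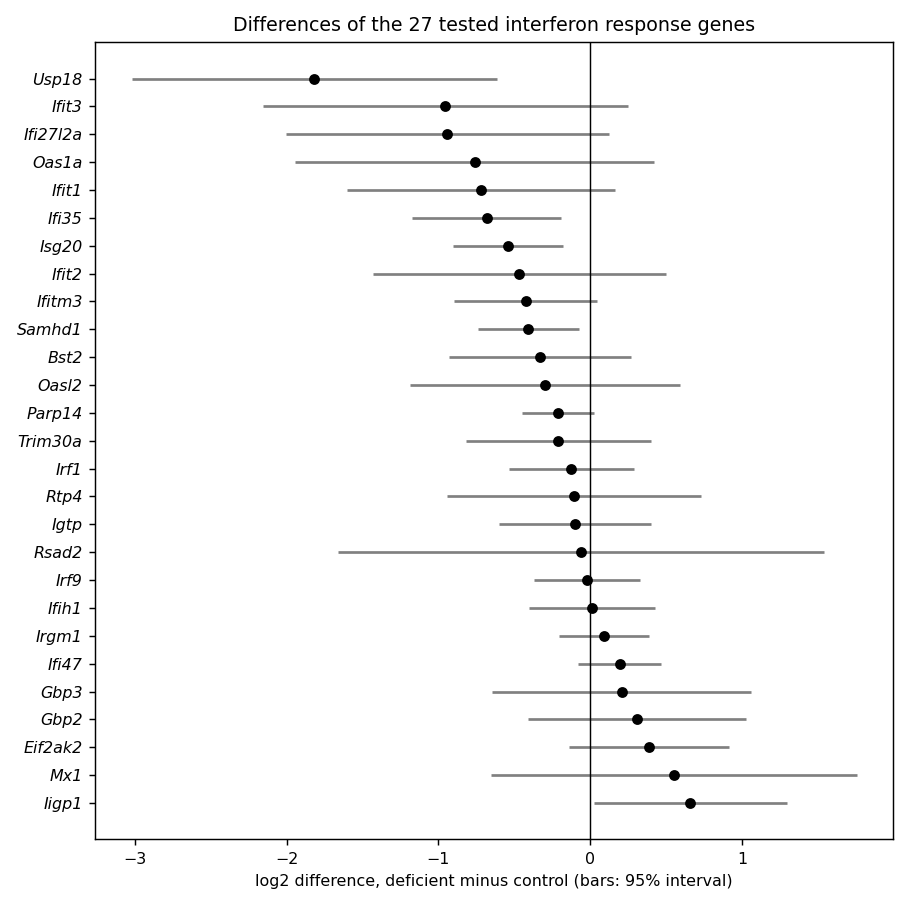
Log2 difference, deficient minus control, of the 27 tested interferon response genes; points are estimates and bars 95% intervals from limma. The intervals of Usp18, Ifi35, Isg20, Samhd1 and Iigp1 exclude 0 before adjustment for multiple tests, and Usp18 lies farthest from 0 at -1.82.

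Inhibitors of the pathway were read in 2 members. Usp18 encodes a protease that removes ISG15 from proteins and blocks the type I interferon receptor. It ranged from 5.13 to 8.39 across controls (median 7.30) and from 3.98 to 6.97 across deficient tumours (median 5.64). Deficient 2, 3 and 6 lay below every control, deficient 6 near the background, and the rest overlapped the controls. The group means, 7.20 ± 1.10 and 5.38 ± 1.20 (SD, n = 7 each), gave a difference of -1.82 (SE 0.56, 3.53-fold lower, limma adjusted p = 0.175, two-sided exact permutation p = 0.0152). Every deficient array, 7 of 7, was under the mean of the controls. Socs1, which encodes a JAK inhibitor, lay at the background of the array in every sample, with both group means at 2.14, and was not tested.

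Both the nuclease and the nucleotide hydrolase among the members had lower means in deficient tumours. Isg20 encodes an exonuclease that degrades RNA. Its values ran from 9.20 to 10.24 across controls (median 9.84) and from 9.002 to 9.87 across deficient tumours (median 9.15), and 4 deficient arrays lay below the lowest control. The difference was -0.54 (SE 0.17, limma adjusted p = 0.175, exact permutation p = 0.0122). Samhd1, whose product breaks down deoxynucleotides, ran from 8.37 to 9.16 across controls (median 8.91) and from 8.10 to 8.83 across deficient tumours (median 8.38). The groups overlapped, with a difference of -0.41 (SE 0.16, limma adjusted p = 0.252) and of -0.52 (SE 0.29) in its other bright probeset. Ifi35, which encodes a leucine zipper protein, ran from 5.60 to 7.08 across controls (median 6.18) and from 4.82 to 5.85 across deficient tumours (median 5.51). Here 4 deficient arrays lay below every control, and the difference was -0.68 (SE 0.23, limma adjusted p = 0.204, exact permutation p = 0.0122).

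**Figure D2:**
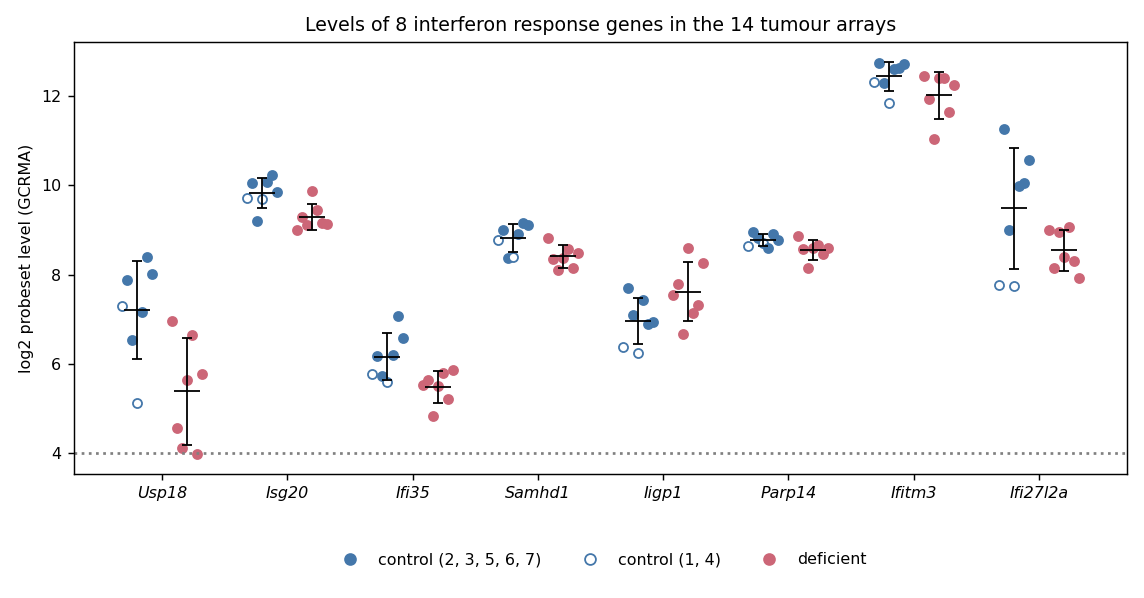
Log2 level in each of the 14 arrays for the 8 tested members with the smallest p; bars are group means ± SD (n = 7), open circles are control 1 and control 4, and the dotted line is the level of 4 used in the filter. Usp18 spans 5.13 to 8.39 in controls and 3.98 to 6.97 in deficient tumours, and control 1 and control 4 hold the lowest Ifi27l2a values, 7.76 and 7.75.

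The antiviral effectors of the IFIT and OAS families lay lower in the mean but spread widely. IFIT proteins bind viral RNA at its end, and OAS enzymes make a signal that activates an RNA-degrading nuclease. All 3 IFIT genes had negative differences, of -0.72 (SE 0.41) for Ifit1, -0.47 (SE 0.45) for Ifit2 and -0.95 (SE 0.56) for Ifit3. Oas1a differed by -0.76 (SE 0.55) and Oasl2 by -0.30 (SE 0.42), with limma adjusted p-values of 0.436 to 0.775 over these 5 genes. Oasl1 was at the background in every array and was not tested. Close relatives such as the other OAS1, IFIT3 and GBP genes could share probes with these members, and the deposited values do not separate them.

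Viperin and Mx1 were, with Usp18, the members with the widest spread within groups. Rsad2, which encodes viperin, an enzyme that makes a chain-terminating nucleotide, ran from 2.78 to 7.20 across controls (median 5.65) and from 2.26 to 6.46 across deficient tumours (median 5.60). The ranges nearly coincided, and the difference was -0.06 (SE 0.75). Mx1, an antiviral GTPase of the dynamin family, ran from 4.49 to 8.38 across controls (median 6.48) and from 4.76 to 8.27 across deficient tumours (median 6.98), a difference of 0.55 (SE 0.56). Control 4 held both the highest Mx1 value and the lowest control values of Usp18, Rsad2 and Oas1a. Mx2 was at the background throughout.

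Proteins at membranes lay lower in the mean. Ifitm3, the brightest member, encodes a protein that stops viruses fusing with endosomes. It ran from 11.83 to 12.73 across controls (median 12.59) and from 11.04 to 12.45 across deficient tumours (median 12.25), with 2 deficient arrays below every control. The difference was -0.43 (SE 0.22, limma adjusted p = 0.388). Ifi27l2a, a small interferon-induced membrane protein, ran from 7.75 to 11.25 across controls (median 9.98) and only from 7.92 to 9.06 across deficient tumours (median 8.39). All deficient values lay within the control range, and the difference was -0.94 (SE 0.50, limma adjusted p = 0.398). Bst2, or tetherin, which holds budding viruses at the cell surface, differed by -0.33 (SE 0.28), and Rtp4 by -0.11 (SE 0.39).

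Of the 6 tested members that encode GTPases induced by gamma interferon, 5 had positive differences. Over all probesets 47.4% had a negative one. Outside the members, the GTPase gene Irgm2 differed by -0.35 (SE 0.28) and Gbp7 by 0.18 (SE 0.32). Gbp6, given below, differed by 1.13 (SE 0.31), but most controls were under 4 for it and the difference is a bound. These GTPases act on the vacuoles of intracellular pathogens. Iigp1 ran from 6.24 to 7.70 across controls (median 6.94) and from 6.67 to 8.60 across deficient tumours (median 7.54), with deficient 2, 4 and 7 above every control. The difference was 0.66 (SE 0.30, limma adjusted p = 0.327, exact permutation p = 0.0635) and 0.69 (SE 0.37) in its other probeset. Gbp2 differed by 0.31 (SE 0.33), Gbp3 by 0.20 (SE 0.40), Ifi47 by 0.19 (SE 0.13) and Irgm1 by 0.09 (SE 0.14), whereas Igtp differed by -0.10 (SE 0.23). The 2 GBP differences were -0.0020 and -0.019 without control 1 and control 4, so their sign rests on those arrays. Iigp1 differed by 0.40 (SE 0.30, limma adjusted p = 0.496) without them.

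Of the sensors, Eif2ak2, the kinase PKR that halts translation on double-stranded RNA, differed by 0.38 (SE 0.25), and by 0.41 (SE 0.19) in its other probeset, neither past the adjusted threshold. With array quality weights it differed by 0.62 (limma adjusted p = 0.0230), a setting that called 15.0% of all probesets. The lowest weight, 0.277, fell on deficient 1, where Eif2ak2 read 5.63 against 6.79 to 7.51 in the other deficient arrays. Ifih1, the RNA sensor MDA5, read 8.45 ± 0.41 (SD, n = 7) among controls against 8.46 ± 0.33 among deficient tumours, and its 95% interval was -0.40 to 0.42. Irf1, a transcription factor of the gamma interferon response, differed by -0.13 (SE 0.19). Irf9, the DNA-binding part of the ISRE complex, differed by -0.02 (SE 0.16). Irf7, which amplifies type I interferon production, was left out by the filter. It lay above 4 only in control 2 and control 6, at 4.94 and 4.31, and between 2.34 and 2.82 in all deficient tumours. Stat2 and Dhx58, a relative of the RNA sensors, lay under 4 in all 14 arrays.

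Of the remaining effectors, Parp14, an ADP-ribosyltransferase, ran from 8.58 to 8.94 across controls (median 8.77) and from 8.14 to 8.86 across deficient tumours (median 8.60). The groups overlapped, and the difference was -0.21 (SE 0.11, limma adjusted p = 0.386). Trim30a, among the 3 brightest members, ran from 8.66 to 9.65 across controls (median 9.24) and from 7.96 to 9.86 across deficient tumours (median 9.24), with deficient arrays at both ends. The difference was -0.21 (SE 0.29).

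The members varied more within groups than most probesets did. Their median SD within groups was 0.57, against 0.34 over all tested probesets, and 11 of the 27 exceeded the 90th percentile of all probesets, 0.76. Control 6 held the highest value of 9 members and control 2 of 6, whereas control 4 held the lowest value of 9, deficient 6 of 6 and deficient 3 of 5. The extremes in both directions thus included control arrays. The mean over the members, after subtracting each gene's own mean, was 0.64 in control 2 and 0.59 in control 6, and -0.66 in control 4 and -0.64 in deficient 6.

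Among controls many members were lower in the mean of the 2 arrays that share a leading number. The 2 were not alike: the mean over the members, as above, was -0.27 in control 1 and -0.66 in control 4. Control 3, of the other leading number, lay at -0.13. The mean of control 1 and control 4 lay below that of the other 5 controls for 24 of 27 members (88.9%), against 45.1% of all probesets. Both arrays lay below all other controls for 7 members, 25.9%, against 8.68% of all probesets. These were Oas1a, Ifi27l2a, Oasl2, Ifit3, Ifit1, Bst2 and Iigp1, and the set was chosen after their values were seen. Oas1a read 3.81 and 4.92 in these 2 controls and 6.77 to 7.78 in the other 5, a gap of -2.94 between the means, beside a difference of -0.76 between deficient and control groups. Oas1a in deficient tumours, at 4.86 to 6.25, lay above control 4, around control 1 and below the other 5 controls. Ifi27l2a differed by -2.42 between the 2 sets of controls and Rsad2 by -2.27. Rsad2 lay under 4 in control 4, at 2.78, and in control 3, at 3.72, so the size of its gap is uncertain. The median of the gap between these 2 sets over the members was -0.52, against 0.04 over all probesets. It was wider than the difference between genotypes for 18 of 27 members (66.7%), against 59.6% of all probesets, a share near the background. Tested members with an ISRE core had a median gap of -0.78 (13 genes) and those with a promoter sequence but no core -0.25 (8 genes), a description over few genes. The difference between genotypes ran the other way over the same split. Its median was -0.10 with an ISRE core, 8 of 13 lower, and -0.36 without, 7 of 8 lower.

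**Figure D3:**
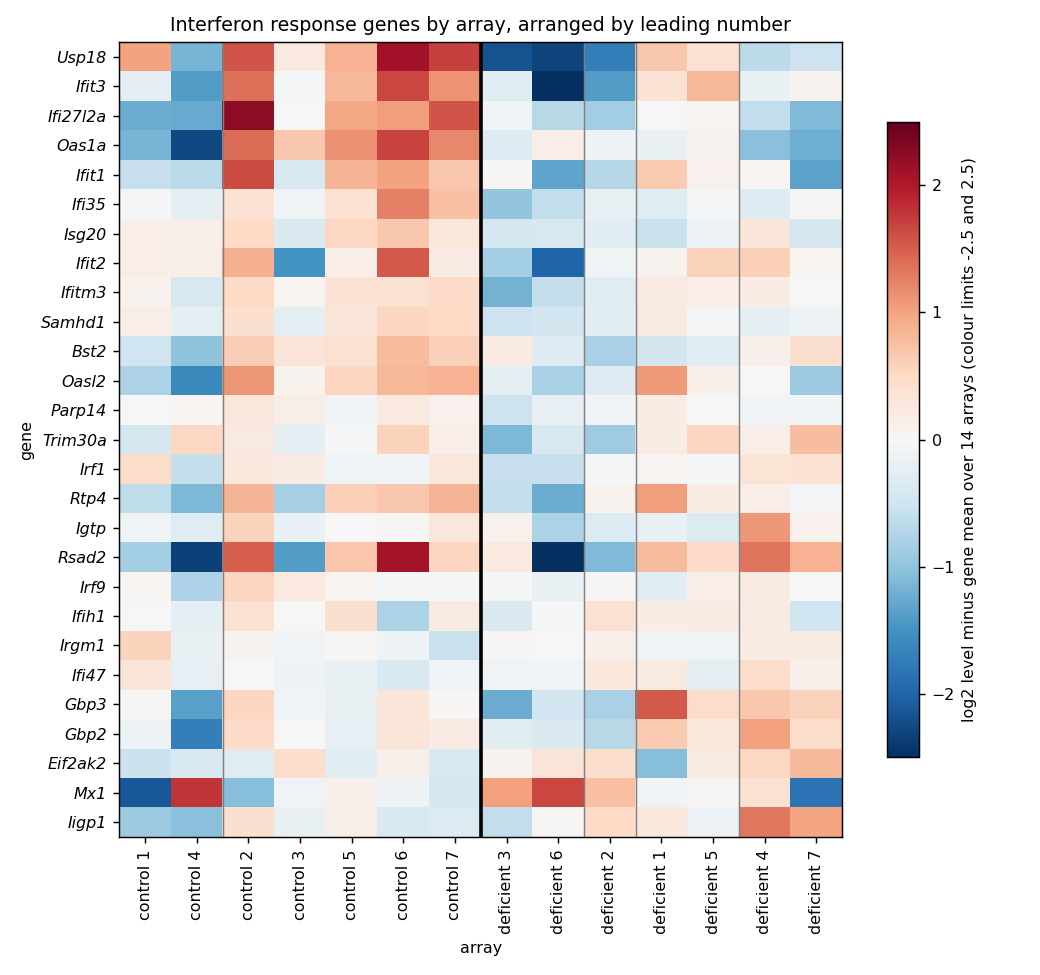
Log2 level minus the gene's mean over 14 arrays, in colour, for the 27 tested members (rows, by difference) in each array (columns); thin lines part leading numbers, the thick line parts the groups, and values past 2.5 units take the end colour. Control 4 and deficient 6 are low for many members, and control 2 and control 6 high, while Mx1 is high in control 4.

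The calls depended on the arrays used. Without control 1 and control 4, an alternative chosen after seeing the data, 2 of 27 members passed, where 0.937% of all probesets did (119 of 12701). Oas1a then fell by 1.60 (SE 0.26, limma adjusted p = 0.0341) and Ifi27l2a by 1.63 (SE 0.34, adjusted p = 0.0478), and 5 members had positive differences. Those 2 members had the widest gaps between control 1 and control 4 and the other 5 controls, -2.94 and -2.42. Their calls thus follow from leaving out the controls in which they were lowest. Array quality weights, which let arrays close to the fit count for more, gave 8 of 27 members, where 15.0% of all probesets passed (1900 of 12701). These were Usp18, Isg20, Ifi35, Samhd1, Ifitm3, Ifi27l2a, Ifit3 and Eif2ak2. The weights were highest in control 5 and control 2, at 4.15 and 3.71, and lowest in deficient 1 and control 4, at 0.277 and 0.410. Control 1 was weighted at 1.24, so the weights did not set control 1 and control 4 apart together. With that number fitted as a random block 0 members passed, and Usp18 differed by -1.68 (SE 0.70, adjusted p = 0.989). Among deficient arrays the means of the 4 leading numbers ran from 4.04 to 6.81 for Usp18. Without deficient 3 and deficient 6, which share a leading number, 15 of 27 members were higher in deficient tumours and the median difference was 0.02.

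Some leukocyte markers were low in the same arrays, and others were not. The macrophage list had 14 tested genes of 17 listed, 12 of them lower in deficient tumours and 0 past the adjusted threshold. Their mean log2 level lay at 8.65 to 9.85 across controls and 8.62 to 9.25 across deficient tumours. Within controls it was 8.65 to 9.07 in control 1 and control 4 and 9.49 to 9.85 in the other 5, which do not overlap. For control 1 this rests on Marco, which read 3.05 there, under the filter level of 4, and 9.49 in control 6. Adgre1, which encodes a macrophage surface receptor, differed by -0.78 (SE 0.28) between genotypes, Csf1r by -0.42 (SE 0.22) and the abundant lysozyme gene Lyz2 by 0.02 (SE 0.11), and Itgam was at the background. The 4 tested dendritic cell genes were all lower, with a mean level of 6.09 to 7.36 in controls (6.09 to 6.62 in control 1 and control 4) and 5.37 to 7.09 in deficient tumours, and Flt3, Xcr1, Ccr7 and Cd209a were at the background. Of 7 tested T and NK cell genes 5 were lower, with levels of 5.19 to 6.44 and 4.70 to 6.42, and control 1, at 5.83, lay within the other controls. Cd4, Cd8a and Ncr1 were at the background. The neutrophil list went the other way in its 3 tested genes, Il1b, S100a8 and S100a9, with a median of 0.32 and SEs of 0.42 to 0.52. The filter left out 6 of its 9 measured genes, Cxcr2 and Csf3r among them, so the list says little of neutrophils as a class. For the 3 tested genes control 1 and control 4, at 8.35 and 7.40, lay within the range of the other controls, 7.39 to 10.42. Of 4 tested B and plasma cell genes 2 were higher and 2 lower, at 7.16 to 7.73 in those 2 controls and 7.19 to 8.002 in the other 5. Ciliated cell markers, 5 of 5 lower, lay at 6.65 to 10.07 across controls and at 4.85 to 7.98 across deficient tumours. Club cell markers, 9 of 10 lower, lay at 10.96 to 12.27 across controls and 9.13 to 11.32 across deficient tumours. Their median differences, -2.32 for ciliated and -1.32 for club cell markers, were the widest of the marker lists. Endothelial markers, 10 of 11 lower, were lowest in deficient 3 and deficient 6. Beside all these counts, 47.4% of all tested probesets were lower in deficient tumours. The part of these cells in the levels of the interferon response genes was not tested.

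**Figure D4:**
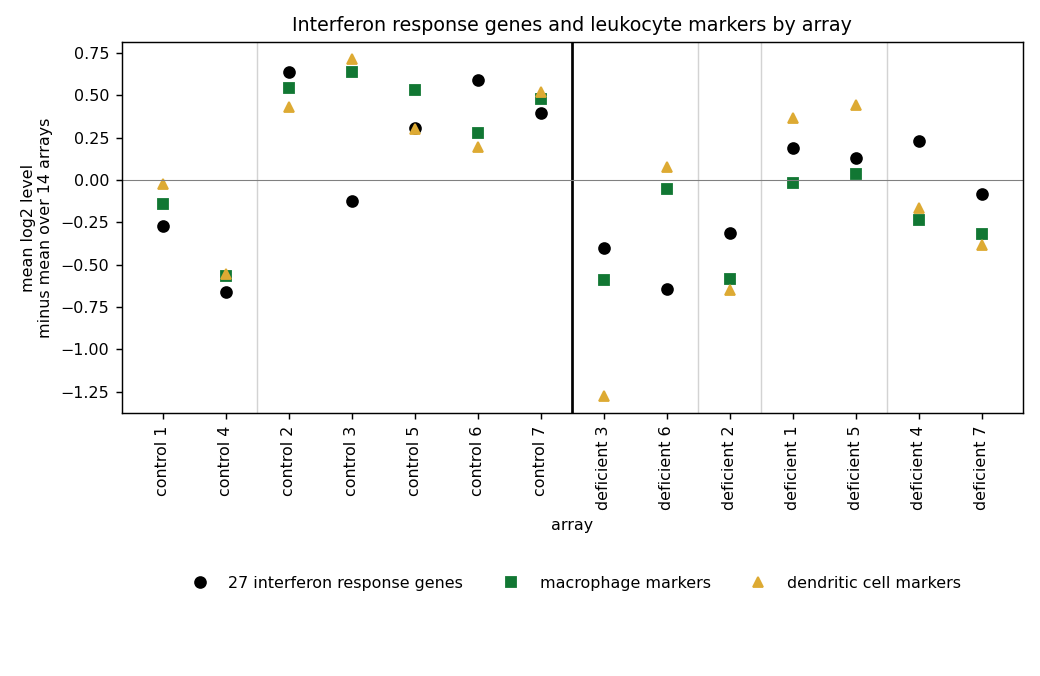
Mean log2 level minus its mean over 14 arrays for the 27 tested interferon response genes, the 14 macrophage and the 4 dendritic cell markers, by array; lines part leading numbers and groups. Control 1 and control 4 lie below 0 in all 3 lists, control 1 for macrophage markers through its Marco value of 3.05. Control 3 is high for the markers but at -0.13 for the interferon response genes. Deficient 4 is at 0.23 for the interferon response genes with macrophage markers below 0.

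Other genes of the pathway, listed beside the members, gave no call over all probesets tested. Those given below were picked by rule for a small p or a high level, 17 genes in all. With array quality weights 10 of them passed: Ifitm1, Slfn2, Tlr7, Ptpn1, Gbp6, Il10rb, Nlrx1, Stat3, Tlr4 and Ifngr1. Without control 1 and control 4 Ifitm1 did. Most of the 17 were picked for a small p in these same arrays. Their count therefore cannot be set beside the 15.0% of all probesets called with the weights. Tlr7 and Gbp6 lay above 4 in only 8 and 9 arrays. No measured interferon gene rose over 4 in any array, Ifnb1 and Ifng included. Of 12 measured interferons and related cytokines 10 lay under 4 in all arrays, and the exceptions were the cytokines Il15 and Il18. Only Il18, which encodes a cytokine that elicits gamma interferon, was tested, at -0.51 (SE 0.39). Of 9 tested receptor and signalling genes 7 were lower, with a median of -0.19. Ifngr1, a chain of the gamma interferon receptor, differed by -0.28 (SE 0.13), Stat3 by -0.28 (SE 0.13), Il10rb, a chain of the lambda interferon receptor, by 0.31 (SE 0.16) and the bright Jak2 by -0.19 (SE 0.20). Their limma adjusted p-values were 0.337 to 0.704.

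Of 14 tested genes of nucleic acid sensing 7 were higher and 7 lower. Tlr4, the receptor for bacterial lipopolysaccharide, differed by 0.51 (SE 0.21). The RNA receptor gene Tlr7 differed by -1.41 (SE 0.73), but it lay above 4 in only 8 arrays, 5 controls and 3 deficient. Irf3, which drives interferon transcription, differed by -0.18 (SE 0.10) and Tlr3 by 0.07 (SE 0.12). Of 12 tested inhibitors of the pathway 6 were higher and 6 lower. The phosphatase genes Ptpn1 and Ptpn6 differed by -0.46 (SE 0.18) and -0.44 (SE 0.18), and for each all 7 deficient arrays were under the mean of the controls. Nlrx1 differed by -0.45 (SE 0.32) and Ptpn11 by 0.09 (SE 0.12), with -0.17 over all its probesets.

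Of 28 tested further interferon-induced effectors 12 were higher and 16 lower, 2 and 3 of them at an unadjusted p under 0.05. These 5 were 17.9% of the list, near the 14.7% of all probesets. Ifitm1, a relative of Ifitm3, had the smallest p. It ran from 9.11 to 11.70 across controls (median 10.92) and from 6.78 to 9.68 across deficient tumours (median 8.68), with 5 of 7 deficient arrays below every control. The difference was -1.91 (SE 0.48, limma adjusted p = 0.132, exact permutation p = 0.00408), or -2.38 with an adjusted p of 0.0426 without control 1 and control 4. Gbp6, a guanylate-binding GTPase, ran from 3.52 to 4.17 in controls (median 3.76), near the background, and from 3.89 to 6.31 in deficient tumours (median 4.58), with 6 of 7 above every control. Its difference was 1.13 (SE 0.31, limma adjusted p = 0.141, exact permutation p = 0.00291). Gbp6 lay above 4 in 3 of 7 controls and 6 of 7 deficient arrays, and so met the filter through the group where it was high. With most controls under 4, the difference is a bound and these p-values are no support for it. Slfn2 differed by -0.74 (SE 0.29) and Ifi30, a lysosomal reductase gene and the brightest of the list, by -0.25 (SE 0.13).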

How the data were processed

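The deposited values are log2 probeset levels that the authors made with GCRMA, per the submitters' processing notes, a method that models background from the probes' base content, makes arrays comparable and joins probes into 1 value. Its version and the genome build are not given in the sources used here. Values ran from 2.12 to 15.4, and 43.9% lay under 4, where they pile up at the background; a level there is a bound. The number of arrays limits the precision. Genes were named from the platform annotation where a probeset had 1 symbol.

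The comparison used limma 3.58.1 under R 4.3.3 (lmFit and eBayes, 1 group term, two-sided) on probesets above 4 in at least 7 of 14 arrays, with Benjamini-Hochberg adjustment over all 12701. Differences are deficient minus control each with its standard error (SE). Exact permutation tests ran over 3432 splits and can give no p below 0.000583. The model was tested on simulated data.

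The members and lists were chosen with earlier results of these data known. Given in full are the 8 tested members with the smallest p, the 3 brightest and the 3 with the largest SD within groups, and, of each pathway list, the 3 with the smallest p and the brightest. Members were left out of marker lists. The alternatives tried covered the filter, the floor, normalisation, the variance model, array weights, the leading number, replicate numbers, the probeset rule and arrays left out.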

Additional observations from a re-analysis of the deposited data

Results flagged for a closer look

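Of 54 sets of 7 values (27 members in each group), 3 held an array far from the others, where the gap to the nearest array was over 0.568 of the whole range. Chance flags about 1 in 20 such sets. Eif2ak2 in deficient 1 read 5.63, while the other deficient arrays lay between 6.79 and 7.51. Gbp2 in control 4 read 5.58, while the other controls lay between 7.09 and 7.77. Gbp3 in control 4 read 4.19, while the other controls lay between 5.35 and 6.08.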

How the results depend on the processing

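With array quality weights 8 members passed, and without control 1 and control 4, added after seeing the data, 2 did; the other alternatives gave 0. The count of members higher, 8 in the report, was 15 without deficient 3 and 6, 5 without control 1 and 4, and 6 to 12 with single arrays left out. Over all probesets 5 passed in the report, against 0 with no filter, with the leading number as a block or averaged, 2 with the replicate block, 9 with a variance trend, 1900 with array weights, 32 without deficient 3 and 6, and 0 to 85 with single arrays left out (85 without control 4, 30 without deficient 6). The replicate numbers did not pair the arrays: deviations of same-numbered arrays correlated at -0.23 to 0.22, with 2 of 7 pairs over 0.1, and 0 of 14 arrays correlated best with their own number. With the replicate block 0 members passed.

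Signs turned as follows, in each case without passing the threshold, and the cause was not tested. Array weights gave -0.092 for Gbp3, -0.12 for Ifih1 and -0.0154 for Ptpn11, and averaging probesets gave -0.17 for Ptpn11. The leading number as a block gave 0.069 for Rtp4, 0.047 for Irf9 and 0.18 for Rsad2, and averages over it 0.077 for Oasl2, 0.19 for Rtp4, 0.093 for Irf9 and 0.29 for Rsad2. Without deficient 3 and 6 the values were 0.0089 for Ifit2, 0.049 for Trim30a, 0.081 for Irf1, 0.016 for Igtp, 0.24 for Rtp4, 0.019 for Irf9 and 0.45 for Rsad2. Without control 1 and 4 they were -0.0020 for Gbp2, -0.019 for Gbp3, -0.037 for Ifih1 and -0.039 for Tlr3. With single arrays left out the differences ran from -0.033 to 0.43 for Gbp3, -0.12 to 0.094 for Ifih1, -0.29 to 0.021 for Igtp, -0.15 to 0.065 for Irf9, -0.46 to 0.41 for Rsad2, -0.30 to 0.090 for Rtp4 and -0.00069 to 0.13 for Ptpn11. Without a turn of sign, they ran from -0.76 to -0.17 for Ifit2, 0.24 to 0.90 for Mx1, -0.36 to -0.04 for Trim30a and -0.60 to -0.14 for Oasl2. The median over the members was -0.50 with array weights, -0.48 without control 1 and 4 and 0.02 without deficient 3 and 6. With single arrays left out, Usp18 ran from -2.16 to -1.58 with a limma adjusted p of 0.0621 to 0.367.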
